A study of Mus musculus with 12 samples.

Results

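DNA replication and S-phase genes are the genes that cells use to copy their genome. The set described here holds 53 genes, all 53 of which were found by symbol among the 17536 genes of the deposited expression table. They were fixed by name, not by their values, and were sorted by role into 10 groups: origin licensing, the Mcm2-7 helicase, helicase activation, clamp and clamp loader, polymerases and primase, single-strand binding and flap joining, nucleotide supply, G1/S regulators, chromatin copying and fork protection. RNA-seq had been done on chondrocytes of the superficial zone (SFZ) and the deep zone (DZ) of cartilage from 5-day-old C57BL/6 mice. The study's methods give the background as C57BL/6J. The 12 libraries were 3 R3-Cntl and 3 R3-cKO libraries from each zone. R3-Cntl mice were Runx3 fl/fl and R3-cKO mice were Col2a1-Cre; Runx3 fl/fl, so the floxed Runx3 alleles were shared by both groups and only Cre differed. Col2a1-Cre acts in cells of the chondrocyte lineage, and other cells of a preparation may keep Runx3. The study describes 3 individual mice of each genotype, as littermates, but SFZ and DZ libraries of the same number are not stated to come from the same animal.

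SFZ cells were released from the ends of femur and tibia by enzymes, and DZ cells by further digestion of the cartilage left behind. The study's methods describe seeding of dissociated cells on fibronectin-coated dishes and monolayer culture with fetal bovine serum, and the time between isolation and RNA collection is not given in the sources used here. The values are levels in FPKM, fragments scaled to transcript length and to library size, a unit inferred from the values, and the depth of the libraries is unknown. In a bulk library a lower level cannot be told apart between fewer cells of a kind and less RNA per cell, which holds for every S-phase gene below.

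Each round of DNA replication is prepared in G1, when the origin recognition complex, Cdc6 and Cdt1 load the ring-shaped Mcm2-7 helicase on DNA. At the entry into S phase, cyclin E and the Dbf4-Cdc7 kinase switch the helicase on by adding Cdc45 and the GINS complex, primase and polymerases start the new strands, and the sliding clamp Pcna holds the polymerases in place. Transcription of most of these genes is switched on by E2F factors in late G1 and falls outside S phase, so in a mixed population their RNA marks the cycling cells. In growing cartilage, proliferating chondrocytes use this machinery, and chondrocytes leave the cell cycle as they become hypertrophic.

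Because the members moved together (below), the 300 bases around their start sites were searched for 4 spellings of the E2F site, TTTCCCGC, TTTCGCGC, TTTGCCGC and TTTGGCGC, and for CCAAT, the word bound by the NF-Y complex, on both strands. The windows run from 250 bases before to 50 bases after each annotated start and come from RefSeq on GRCm38.p6. Of the 53 members, 43 had a window (53 windows in all). At least 1 E2F word was present in 17 of the 43 (39.5%), against 2.61% of 27025 genes with a window. A CCAAT word was present in 25 (58.1%), against 41.1%. The median GC content was 60.0% in the members' windows and 52.7% in all windows, and the part of base composition in these shares was not tested. The words can overlap each other, since the end of one can be the start of another read on the opposite strand. A match is a run of letters and no evidence of binding.

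The windows of 5 members are given below, 5′ to 3′ on the strand of the gene, with E2F words and CCAAT (or ATTGG, its reverse) in capitals. Mcm5 and Mcm6 encode subunits of the helicase and carry 2 and 3 words, in part overlapping. Cdc6 (helicase loading) and Clspn (claspin, which relays stalled-fork signals) hold 1 E2F word each, and Rrm2, a subunit of ribonucleotide reductase with a wide range between libraries, holds none.
Mcm5, chr8:75109259-75109558, plus strand: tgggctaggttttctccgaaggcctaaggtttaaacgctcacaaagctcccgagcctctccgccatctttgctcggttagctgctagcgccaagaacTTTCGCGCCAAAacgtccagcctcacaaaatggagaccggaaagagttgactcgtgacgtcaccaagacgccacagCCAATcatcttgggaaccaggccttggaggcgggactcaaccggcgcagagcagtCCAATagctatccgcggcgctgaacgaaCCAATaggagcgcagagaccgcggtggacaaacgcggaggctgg
Mcm6, chr1:128359656-128359955, minus strand: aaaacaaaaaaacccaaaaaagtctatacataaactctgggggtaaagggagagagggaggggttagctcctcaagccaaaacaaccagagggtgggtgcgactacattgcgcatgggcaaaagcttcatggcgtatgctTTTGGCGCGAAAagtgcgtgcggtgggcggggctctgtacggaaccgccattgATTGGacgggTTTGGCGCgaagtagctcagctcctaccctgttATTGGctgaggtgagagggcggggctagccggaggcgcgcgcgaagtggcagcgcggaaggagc
Cdc6, chr11:98907901-98908200, plus strand: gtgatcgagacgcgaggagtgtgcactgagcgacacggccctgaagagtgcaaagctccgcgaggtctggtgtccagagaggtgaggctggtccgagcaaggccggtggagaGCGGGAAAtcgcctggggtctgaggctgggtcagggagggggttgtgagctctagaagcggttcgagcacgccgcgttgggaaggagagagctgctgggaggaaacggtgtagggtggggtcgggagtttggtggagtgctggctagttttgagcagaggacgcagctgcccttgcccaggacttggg
Clspn, chr4:126556730-126557029, plus strand: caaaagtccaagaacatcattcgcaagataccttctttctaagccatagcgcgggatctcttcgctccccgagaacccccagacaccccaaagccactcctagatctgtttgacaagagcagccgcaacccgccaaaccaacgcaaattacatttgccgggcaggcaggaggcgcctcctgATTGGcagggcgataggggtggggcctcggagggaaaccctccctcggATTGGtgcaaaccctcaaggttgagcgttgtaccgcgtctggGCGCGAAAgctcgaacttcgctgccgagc
Rrm2, chr12:24708004-24708303, plus strand: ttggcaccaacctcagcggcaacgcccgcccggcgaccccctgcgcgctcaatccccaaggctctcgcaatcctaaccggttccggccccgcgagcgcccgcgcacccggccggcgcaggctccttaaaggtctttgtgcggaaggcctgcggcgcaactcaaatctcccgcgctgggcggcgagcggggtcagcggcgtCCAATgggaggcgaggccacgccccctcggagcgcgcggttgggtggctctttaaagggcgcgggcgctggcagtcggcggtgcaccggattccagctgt
In Mcm5 the words start at -153 and -149 relative to the start site and overlap, in Mcm6 they start at -110, -106 and -47, in Cdc6 at -138 and in Clspn at 21. The ratio of a member's highest to its lowest library had a median of 6.10 in the 17 with an E2F word (2.43 to 19.9) and of 5.45 in the 26 without (2.40 to 18.1).

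The 12 libraries differed widely in their level of replication genes, and the differences did not follow the groups. Summed over the 53 members, R3-Cntl SFZ libraries 1, 2 and 3 held 601, 926 and 1380 FPKM. R3-cKO SFZ libraries held 458, 1254 and 341 FPKM. R3-Cntl DZ libraries held 436, 726 and 350.2 FPKM, and R3-cKO DZ libraries held 673, 1155 and 336 FPKM. The highest sum was 4.11 times the lowest, and each of the 4 groups contained a library at least 2.07 times its own lowest. The group means were 969 ± 391 in R3-Cntl SFZ, 684 ± 497 in R3-cKO SFZ, 504 ± 197 in R3-Cntl DZ and 721 ± 412 in R3-cKO DZ (SD, n = 3 each). R3-Cntl SFZ library 3 and library 2 of both R3-cKO groups formed the top of the range, and library 3 of both R3-cKO groups and of R3-Cntl DZ the bottom.

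The members varied together. The highest library was R3-Cntl SFZ 3 for 42 members, R3-cKO SFZ 2 for 8 and R3-cKO DZ 2 for 3. The lowest was R3-cKO SFZ 3 for 26, R3-cKO DZ 3 for 15, R3-Cntl DZ 3 for 9 and R3-Cntl DZ 1 for 3. R3-Cntl SFZ 3 was among the 3 highest libraries for all 53 members. As a description over the 12 libraries, which share their preparation and scaling, the log2(FPKM + 1) of a member correlated with the mean of the other members at a median r of 0.979, and 49 of the 53 were above 0.9. The exceptions were Pole2 (0.842), Dut (0.850), Gins3 (0.882) and E2f2 (0.641), the last with a mean level of only 0.72 FPKM. The ratio of the highest to the lowest library, computed on FPKM + 1, had a median of 4.0 over the 52 members with a mean of at least 1 FPKM. It was 1.71 over all 11359 genes with such a mean, and 17.7% of those genes but 41 members exceeded 3.

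**Figure D1:**
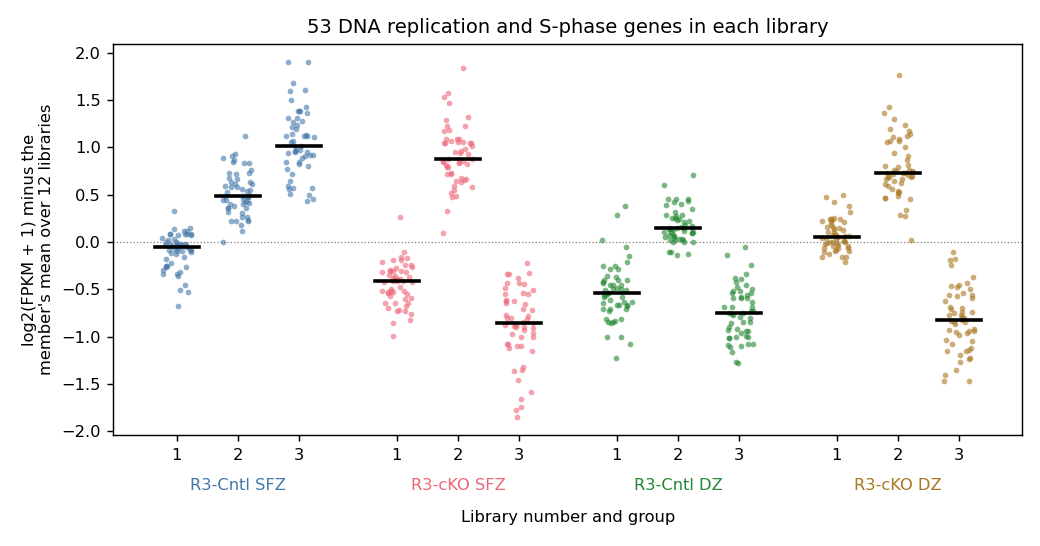
Level of each of the 53 members in each library, as log2(FPKM + 1) minus the same gene's mean over the 12 libraries. Points are genes, black bars are medians over the members, and colours are the 4 groups. The members of a library lie together, and each group spans libraries above and below the mean of the 12 except R3-Cntl SFZ, where library 1 lies near 0 and libraries 2 and 3 above it.

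The range between libraries varied within every role, and a difference between roles was not tested. On FPKM the median ratio of highest to lowest was 8.15 for the 5 origin licensing genes (2.43 to 12.0), 8.11 for the 5 of nucleotide supply (2.89 to 18.1), 7.20 for the 4 of chromatin copying (3.72 to 15.5) and 6.34 for the 3 of fork protection (2.16 to 19.9). It was 6.29 for the 5 G1/S regulators (2.56 to 17.1), 6.13 for the 8 of helicase activation (1.96 to 11.4) and 4.55 for the 4 of single-strand binding and flap joining (3.11 to 7.19). The 6 Mcm2-7 helicase genes had a median of 4.44 (3.64 to 12.3), the 8 of polymerases and primase 4.15 (2.40 to 9.09) and the 5 of clamp and clamp loader 3.87 (2.43 to 5.39). Clspn (19.9), Tk1 (18.1), E2f8 (17.1), Uhrf1 (15.5), Rrm2 (13.9), Mcm5 (12.3) and Cdc6 (12.0) had the widest ranges. The narrowest were Gins4 (1.96), Tipin (2.16), Pold2 (2.40), Orc6 (2.43), Rfc3 (2.43) and E2f1 (2.56).

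The values in every library are given for the member of each group with the highest mean. Orc6, the smallest subunit of the origin recognition complex, stood at 13.8, 18.6 and 21.4 FPKM in R3-Cntl SFZ libraries 1 to 3, 11.05, 23.9 and 10.6 in R3-cKO SFZ, 12.2, 16.5 and 9.97 in R3-Cntl DZ and 14.3, 23.2 and 9.84 in R3-cKO DZ. Mcm6, a subunit of the helicase ring, was 27.9, 40.6 and 53.04 FPKM in R3-Cntl SFZ libraries 1 to 3, 18.6, 50.8 and 12.1 in R3-cKO SFZ, 20.0, 36.8 and 13.7 in R3-Cntl DZ and 31.9, 51.8 and 13.3 in R3-cKO DZ. Both peaked in library 3 of R3-Cntl SFZ or library 2 of R3-cKO SFZ, and Orc6 spanned the smaller range.

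Gins4, a subunit of the GINS complex that activates the helicase, came to 14.1, 18.1 and 21.5 FPKM in R3-Cntl SFZ libraries 1 to 3, 13.01, 19.05 and 11.3 in R3-cKO SFZ, 12.05, 15.7 and 10.9 in R3-Cntl DZ and 16.2, 18.4 and 13.1 in R3-cKO DZ. Pcna, the sliding clamp, ran at 77.6, 108 and 144 FPKM in R3-Cntl SFZ libraries 1 to 3, 61.6, 131 and 49.9 in R3-cKO SFZ, 51.5, 81.3 and 37.9 in R3-Cntl DZ and 70.9, 117 and 37.2 in R3-cKO DZ. Pcna had the highest mean of all members (80.7 FPKM) and lies at chr2:132074898-132079050 on the minus strand of mm9. In both genes the R3-Cntl and R3-cKO libraries overlapped in both zones.

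Pold2, an accessory subunit of DNA polymerase delta, stood at 20.4, 25.03 and 26.3 FPKM in R3-Cntl SFZ libraries 1 to 3, 17.02, 28.6 and 13.9 in R3-cKO SFZ, 15.6, 20.7 and 12.4 in R3-Cntl DZ and 17.6, 29.9 and 13.3 in R3-cKO DZ. Rpa1, the large subunit of the protein that coats single-stranded DNA, was 28.6, 40.97 and 55.5 FPKM in R3-Cntl SFZ libraries 1 to 3, 25.9, 48.3 and 24.7 in R3-cKO SFZ, 18.6, 26.9 and 19.1 in R3-Cntl DZ and 26.8, 40.3 and 16.96 in R3-cKO DZ. Rpa1 in R3-Cntl was higher in every SFZ library than in any DZ library, which was not so in R3-cKO.

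Rrm2, which limits the making of deoxyribonucleotides, came to 17.7, 52.5 and 111 FPKM in R3-Cntl SFZ libraries 1 to 3, 13.96, 106 and 7.93 in R3-cKO SFZ, 11.8, 36.2 and 11.4 in R3-Cntl DZ and 41.03, 100.4 and 11.7 in R3-cKO DZ. E2f1, an activator of S-phase genes, ran at 11.1, 16.6 and 18.4 FPKM in R3-Cntl SFZ libraries 1 to 3, 9.29, 18.4 and 9.26 in R3-cKO SFZ, 7.22, 12.4 and 7.75 in R3-Cntl DZ and 11.1, 17.5 and 10.3 in R3-cKO DZ. In Rrm2, 3 libraries exceeded 100 FPKM, and they belonged to 3 different groups.

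Dnmt1, which copies DNA methylation to the new strand, stood at 17.98, 25.96 and 35.4 FPKM in R3-Cntl SFZ libraries 1 to 3, 12.9, 36.1 and 9.71 in R3-cKO SFZ, 11.9, 21.5 and 10.95 in R3-Cntl DZ and 18.96, 32.2 and 9.80 in R3-cKO DZ. Tipin, a part of the fork protection complex, was 24.4, 28.4 and 38.9 FPKM in R3-Cntl SFZ libraries 1 to 3, 20.2, 36.7 and 18.02 in R3-cKO SFZ, 21.8, 31.7 and 21.9 in R3-Cntl DZ and 25.9, 38.02 and 18.5 in R3-cKO DZ. The same 3 libraries were the highest in Rrm2, Dnmt1 and Tipin, and Tipin had a far smaller range than Rrm2.

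**Figure D2:**
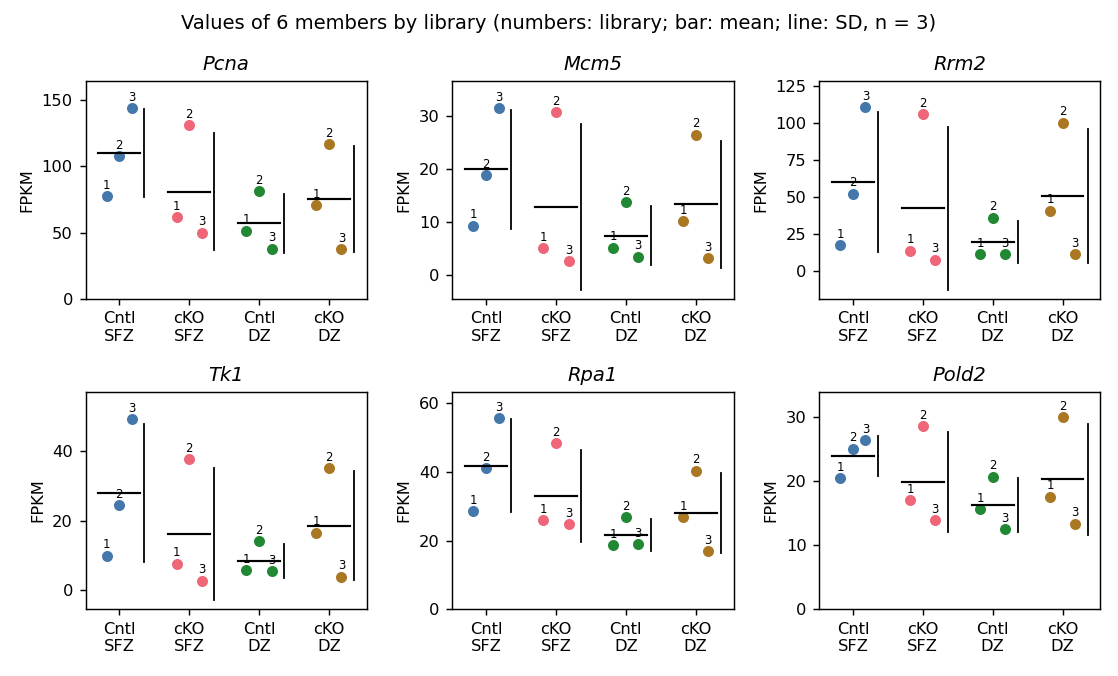
FPKM of Pcna, Mcm5, Rrm2, Tk1, Rpa1 and Pold2 in the 4 groups, with each library as a numbered point, the group mean as a horizontal bar and the SD (n = 3) as a vertical line. In R3-cKO, library 2 is the highest and library 3 the lowest in both zones for all 6 genes, and the SD of Mcm5, Rrm2 and Tk1 in R3-cKO SFZ exceeds the mean.

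Most genes of the 2 cycle lists outside the set moved with it. The sum of 20 mitosis genes, among them Mki67 and Top2a, was 215, 424 and 762 FPKM in R3-Cntl SFZ and 140.4, 628 and 46.0 FPKM in R3-cKO SFZ. It was 119.7, 335 and 88.5 FPKM in R3-Cntl DZ and 278, 576 and 72.6 FPKM in R3-cKO DZ. The mean log2 level of this list correlated with that of the members at r = 0.991, and that of 62 further replication genes at r = 0.998, both over the 12 libraries and as descriptions. Gene by gene, r was above 0.8 in 20 of the 20 mitosis genes and in 42 of the 62 further replication genes, whose lowest r was -0.63. Rb1, which holds E2F back, stayed between 3.56 and 5.54 FPKM in all libraries. The mitosis genes spanned a wider range than the members.

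Other lists also differed between these libraries, and their part in the differences was not tested. Of 10 genes that respond to tissue dissociation, the summed level ran from 95.0 to 217 in R3-Cntl SFZ, 94.7 to 203 in R3-cKO SFZ, 75.7 to 138 in R3-Cntl DZ and 83.4 to 208 FPKM in R3-cKO DZ, with r = 0.873 to the members. 4 of the 10 had r above 0.8, and Atf3 did not follow, at 4.79 FPKM in R3-Cntl SFZ 3 and 3.84 FPKM in R3-cKO SFZ 3. The 13 chondrocyte markers found of 14 summed to 5590 to 17421, 6480 to 14882, 24878 to 39676 and 17210 to 31175 FPKM in R3-Cntl SFZ, R3-cKO SFZ, R3-Cntl DZ and R3-cKO DZ, with r = -0.47 to the members over all libraries and -0.82 within DZ. The 10 macrophage markers summed to 7.15 to 198, 15.8 to 166, 7.30 to 25.8 and 3.35 to 6.16 FPKM in the same order, and to 7.15 and 15.8 FPKM in the 2 SFZ libraries highest in replication genes. The 12 muscle markers reached 136 FPKM in R3-Cntl SFZ 2 and 22.5 FPKM or less in every other library. The 10 endothelial markers summed to 8.97 FPKM or less, the 7 osteoclast markers to 40.9 to 178 FPKM, the 6 hypertrophic markers to 363 to 1559 FPKM, the 8 keratinocyte markers to 10.2 to 26.8 FPKM and the 6 adipocyte markers to 7.61 to 60.8 FPKM. Of these, 6 endothelial, 4 osteoclast and 4 keratinocyte markers were at or under 1 FPKM in all libraries. Ctsk alone held 174 of the 178 FPKM of the osteoclast list in R3-cKO SFZ 3. Perp alone held 22.0 of the 26.8 FPKM of the keratinocyte list in R3-cKO SFZ 2. These 2 sums are therefore no sign of the cell type. Within a zone, over 6 libraries and as descriptions, r with the members reached 0.863 for the hypertrophic list in SFZ (-0.56 in DZ). It reached 0.899 for the muscle list in DZ (0.268 in SFZ) and 0.863 for the adipocyte list in DZ (-0.05 in SFZ). In every DZ library Myh3, Myh8, Ckm and Myog were at 0.01 FPKM or less and Myod1 at 0.02 FPKM or less. Acta1 ran from 0.65 to 12.0 FPKM there and Tnnt3 from 2.90 to 8.85 FPKM. Adipoq and Plin1 were at 0.06 FPKM or less in DZ. These 2 values of r are therefore no sign of muscle or fat cells in DZ. In SFZ r was -0.67 for the macrophage list (-0.39 in DZ) and -0.61 for the tendon and fibrous tissue list (-0.26 in DZ). For the erythroid list it was -0.90 in SFZ (-0.23 in DZ). None of these lists' genes was at 0 in all libraries, and the 7 erythroid markers found of 8 were at or under 1 FPKM throughout.

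**Figure D3:**
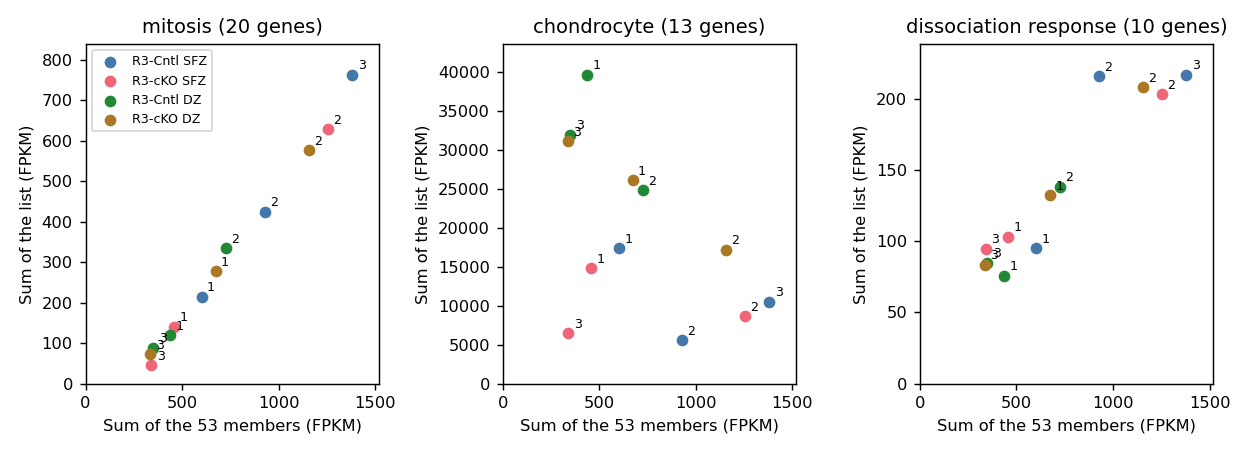
Summed level (FPKM) of the mitosis genes, the chondrocyte markers and the dissociation response genes against the summed level of the 53 members in the 12 libraries, numbered within their group. The mitosis genes rise with the members in a near line, the dissociation genes rise from 75.7 to 217 FPKM, and the chondrocyte markers are higher in most DZ libraries, with R3-Cntl SFZ 1 (17421 FPKM) just above R3-cKO DZ 2 (17210 FPKM).

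Zone markers followed the labels in part. Col2a1, the main collagen of cartilage, lay between 3049 and 9229 FPKM in SFZ and between 11248 and 22791 FPKM in DZ. Thbs4 was at 36.7 FPKM or more in every SFZ library and at 2.49 FPKM or less in every DZ library. Prg4, the lubricin of the cartilage surface, overlapped, at 2.13 to 22.2 FPKM in SFZ and 1.22 to 5.72 FPKM in DZ. Runx3, the targeted gene, was 10.7, 5.98 and 6.65 FPKM in R3-Cntl SFZ, 11.8, 9.07 and 3.42 FPKM in R3-cKO SFZ, 12.7, 12.7 and 7.66 FPKM in R3-Cntl DZ and 15.95, 12.7 and 8.14 FPKM in R3-cKO DZ. The genotype groups overlapped in both zones, so the level of Runx3 did not separate the libraries labelled R3-cKO, and the directions below rest on those labels. In SFZ, Prg4 stood at 22.2, 8.38 and 7.13 FPKM in the R3-Cntl libraries, above all of the R3-cKO libraries at 6.95, 2.47 and 2.13 FPKM, and 0.953% of all genes tested were likewise separate and lower in R3-cKO. In DZ the Prg4 levels of R3-Cntl (1.39, 1.22 and 1.47 FPKM) overlapped those of R3-cKO (5.72, 1.32 and 2.14 FPKM). A value for a whole gene does not check the removal of a part of it.

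The first comparison asked whether DZ cells differ from SFZ cells. Among R3-Cntl libraries, the replication genes had lower means in DZ: 52 of the 52 members tested had a log2 fold change below 0, with a median of -0.83 on log2(FPKM + 1). Of all 11336 genes tested, 72.0% were below 0 and the median was -0.17. Because the members moved together over the libraries, counts of members here and below are not counts of separate observations. By limma, 0 members passed an adjusted p of 0.05 after Benjamini-Hochberg correction (1.24% of all genes did), and 29 of 52 had an unadjusted p under 0.05 and were lower, against 22.4% of all genes. In 7 members (Mcm2, Rpa1, Rfc3, Cdt1, Pola2, Gins3 and Cdc7) every DZ library lay below every SFZ library, which held for 26.5% of all genes, so that share of the members was below the background. E2f2 did not pass the filter on low values.

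By role, the median log2 fold change between zones in R3-Cntl was -1.31 for nucleotide supply, -1.22 for chromatin copying, -0.98 for the Mcm2-7 helicase, -0.92 for helicase activation and -0.88 for polymerases and primase. It was -0.82 for origin licensing, -0.81 for single-strand binding and flap joining, -0.78 for fork protection, -0.73 for G1/S regulators and -0.62 for clamp and clamp loader. All members of each of these groups were below 0. The weakest were Dut, which removes dUTP (-0.12), and Pole2, a subunit of polymerase epsilon (-0.16).

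Uhrf1, which brings Dnmt1 to new DNA, came to 7.48, 17.6 and 26.5 FPKM in R3-Cntl SFZ libraries 1 to 3, 4.98, 22.7 and 1.71 in R3-cKO SFZ, 3.04, 8.71 and 3.26 in R3-Cntl DZ and 8.0, 19.1 and 2.08 in R3-cKO DZ. In R3-Cntl its highest DZ value lay above its lowest SFZ value, and its log2 fold change was -1.57 (SE 0.51, limma adjusted p = 0.12). Tk1, thymidine kinase of the salvage path, ran at 9.92, 24.5 and 49.3 FPKM in R3-Cntl SFZ libraries 1 to 3, 7.59, 37.8 and 2.72 in R3-cKO SFZ, 5.72, 14.1 and 5.38 in R3-Cntl DZ and 16.5, 35.2 and 3.87 in R3-cKO DZ. Tk1 had a log2 fold change of -1.48 (SE 0.59, limma adjusted p = 0.168).

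Chaf1b, a subunit of the histone chaperone of new chromatin, stood at 5.38, 10.8 and 16.8 FPKM in R3-Cntl SFZ libraries 1 to 3, 4.58, 12.7 and 2.55 in R3-cKO SFZ, 2.72, 5.62 and 2.15 in R3-Cntl DZ and 6.87, 10.3 and 1.89 in R3-cKO DZ. Its log2 fold change in R3-Cntl was -1.37 (SE 0.43, limma adjusted p = 0.115). Mcm5, a subunit of the helicase ring, was 9.26, 18.9 and 31.6 FPKM in R3-Cntl SFZ libraries 1 to 3, 5.04, 30.8 and 2.56 in R3-cKO SFZ, 5.09, 13.7 and 3.40 in R3-Cntl DZ and 10.2, 26.5 and 3.19 in R3-cKO DZ. Mcm5 gave -1.36 (SE 0.56, limma adjusted p = 0.175) and Rrm2 -1.41 (SE 0.71, limma adjusted p = 0.236) in the same comparison. The lowest adjusted p of any member belonged to Pola2, the regulatory subunit of polymerase alpha (-1.10, SE 0.28, limma adjusted p = 0.0836).

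The result in R3-Cntl depended on the libraries. Without R3-Cntl SFZ library 3 the members' median was -0.60, and without R3-Cntl DZ library 2 it was -1.19. The number of members with an unadjusted p under 0.05 and lower was 47 without R3-Cntl SFZ library 1 (22.4% of all genes), 42 without R3-Cntl DZ library 2 (24.1%), 9 without SFZ library 2 (10.8%), 6 without SFZ library 3 (15.8%), and 4 without DZ library 1 (14%) or DZ library 3 (21.4%). Without SFZ library 1, Rpa1 and Lig1, the ligase that joins the fragments of the lagging strand, passed the adjusted threshold (limma adjusted p = 0.0482 for each), with 505 of all genes (4.56%). Another scaling shifted the median of all genes: it moved from -0.17 to 0.05 with quantile normalization and to 0.01 with median-of-ratios size factors, and the members' median from -0.83 to -0.61 and -0.67, with 50 of 52 members below 0 under both. In place of 29 members (22.4% of all genes), 9 had an unadjusted p under 0.05 and were lower with quantile normalization (9.69% of all genes) and 12 with median-of-ratios size factors (11.6%). When all 12 libraries entered a single model, 6 of 52 did, against 22.2% of all genes.

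Among the libraries labelled R3-cKO, the members were not lower in DZ as a block. The members' median log2 fold change was 0.14, 12 of 52 were below 0 (65.4% of all genes were) and the median of all genes was -0.09. By limma, 0 members were called and 0 had an unadjusted p under 0.05, against 0.0176% of all genes called. Of all genes, 11.1% had an unadjusted p under 0.05 and were lower, and 3.03% were higher. The numbers were taken to pair these 6 libraries by the check in the methods, from the data and not from the labels. With the number as a block 4 members had an unadjusted p under 0.05 and were higher (E2f8, Dut, Ccne1 and Ccne2), against 7.20% of all genes. None of these 4 passed the adjusted threshold, which 3.11% of all genes did in that fit. With quantile normalization 2 and with median-of-ratios size factors 4 of the 52 members were below 0. The members' medians were then 0.27 and 0.26, beside 0.04 and 0.03 for all genes.

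E2f8, a repressor that closes the E2F wave, came to 4.59, 6.76 and 12.6 FPKM in R3-Cntl SFZ libraries 1 to 3, 2.82, 11.3 and 0.74 in R3-cKO SFZ, 2.64, 8.70 and 2.10 in R3-Cntl DZ and 7.25, 12.6 and 2.35 in R3-cKO DZ. Its log2 fold change between zones in R3-cKO was 0.73 (SE 0.82, limma adjusted p = 0.758). Ccne1, cyclin E1, ran at 5.67, 10.2 and 23.7 FPKM in R3-Cntl SFZ libraries 1 to 3, 4.84, 14.1 and 3.80 in R3-cKO SFZ, 6.10, 9.73 and 5.99 in R3-Cntl DZ and 11.9, 15.3 and 6.11 in R3-cKO DZ. Ccne1 gave 0.61 (SE 0.51, limma adjusted p = 0.658).

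Ccne2, cyclin E2, stood at 3.53, 8.86 and 15.9 FPKM in R3-Cntl SFZ libraries 1 to 3, 2.57, 14.2 and 1.35 in R3-cKO SFZ, 3.05, 8.82 and 2.91 in R3-Cntl DZ and 5.61, 14.9 and 2.40 in R3-cKO DZ. Its log2 fold change was 0.50 (SE 0.84, limma adjusted p = 0.863). Fen1, the nuclease that trims flaps of the lagging strand, was 6.51, 11.02 and 19.4 FPKM in R3-Cntl SFZ libraries 1 to 3, 4.67, 18.7 and 3.32 in R3-cKO SFZ, 5.68, 9.29 and 4.82 in R3-Cntl DZ and 10.03, 18.6 and 5.10 in R3-cKO DZ. For Fen1 the value was 0.48 (SE 0.67, limma adjusted p = 0.822), and Rrm2 gave 0.64 (SE 1.12, limma adjusted p = 0.868). In each of these genes the libraries of the 2 zones overlapped. The median of the members turned from -0.28 without R3-cKO DZ library 2 to 0.64 without R3-cKO SFZ library 2, and was -0.24 without SFZ library 3, -0.03 without SFZ library 1 and 0.54 without DZ library 3.

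Over both genotypes, 50 of 53 members were below 0 (72.0% of all genes), with a median of -0.34 beside -0.14 for all genes. By limma, 0 members were called, while 20.6% of all genes were. Rpa1 alone had an unadjusted p under 0.05 and was lower (log2 fold change -0.57, SE 0.25, limma adjusted p = 0.132), against 28.9% of all genes. With the number as a block 5 members did, against 36.7% of all genes. Rpa1 was then called (limma adjusted p = 0.0441), with 33.7% of all genes. The numbers were not taken to pair all of these libraries. Chaf1b (-0.70), Uhrf1 (-0.69), Lig1 (-0.65), Cdt1 (-0.63) and Pola2 (-0.62) had the largest differences of the members. They act in chromatin copying, in licensing and in the synthesis and joining of strands. Lig1 came to 8.29, 16.98 and 24.8 FPKM in R3-Cntl SFZ libraries 1 to 3, 5.86, 23.1 and 4.02 in R3-cKO SFZ, 4.45, 8.86 and 3.86 in R3-Cntl DZ and 8.90, 19.5 and 3.44 in R3-cKO DZ. Cdt1, the loading factor of the helicase, ran at 7.43, 11.6 and 14.9 FPKM in R3-Cntl SFZ libraries 1 to 3, 5.69, 13.8 and 3.33 in R3-cKO SFZ, 4.18, 6.79 and 2.81 in R3-Cntl DZ and 6.98, 11.6 and 2.44 in R3-cKO DZ. Pola2 stood at 7.12, 9.38 and 14.1 FPKM in R3-Cntl SFZ libraries 1 to 3, 5.0, 13.2 and 4.91 in R3-cKO SFZ, 3.53, 5.85 and 3.13 in R3-Cntl DZ and 6.42, 10.9 and 3.29 in R3-cKO DZ. In all of these genes the SFZ and DZ libraries of R3-cKO overlapped. With quantile normalization 42 and with median-of-ratios size factors 44 of the 53 members were below 0. The members' medians were then -0.16 and -0.21, beside 0.03 and 0.002 for all genes. The members' median over both genotypes was -0.07 without R3-cKO SFZ library 2 and -0.53 without R3-cKO DZ library 2, -0.23 without R3-Cntl SFZ library 3, -0.52 without R3-cKO SFZ library 3 and -0.14 without R3-cKO DZ library 3.

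**Figure D4:**
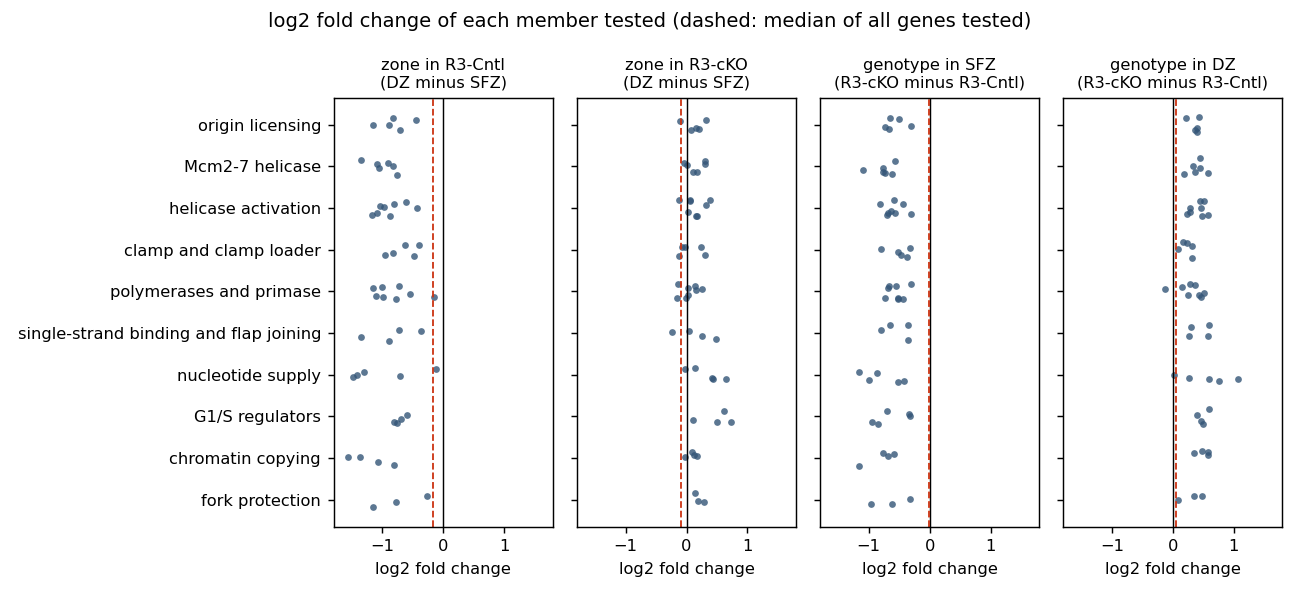
log2 fold change on log2(FPKM + 1) of each member tested, by role, for the zone difference in R3-Cntl and in R3-cKO and for the genotype difference in SFZ and in DZ. Points are genes, the dashed line is the median of all genes tested, and the solid line is 0. The members lie below 0 in the panels for R3-Cntl and for SFZ, around 0 for R3-cKO and, except Pole2, above 0 for DZ.

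The next comparison set SFZ libraries labelled R3-cKO against those labelled R3-Cntl. In the libraries labelled R3-cKO, 53 of 53 members had a lower mean log2 level than in R3-Cntl, with a median log2 fold change of -0.64 beside -0.01 for all genes, of which 52.5% were below 0. By limma, 0 members were called and 0 had an unadjusted p under 0.05. Of all 11537 genes tested, 0% were called, 0.113% had an unadjusted p under 0.05 and were lower, and 0.182% were higher. In 0 members were the groups separate, as they were in 0.953% of all genes with R3-cKO lower and in 1.45% with R3-cKO higher. The libraries of the genotypes thus overlapped in every member. R3-Cntl SFZ also enters the zone comparison above, so the 2 results share these libraries.

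Tk1 (given above) had the largest difference in SFZ, -1.17 (SE 0.95, limma adjusted p = 0.9997), followed by Uhrf1 at -1.16 (SE 0.84), Mcm5 at -1.09 (SE 0.86) and Rrm2 at -0.99 (SE 1.07). Without R3-cKO SFZ library 2, Tk1 gave -2.09, Uhrf1 -2.02, Mcm5 -2.02 and Rrm2 -2.06. Without R3-cKO SFZ library 3 they gave -0.40, -0.45, -0.44 and -0.27 in the same order. Clspn was 2.20, 5.86 and 9.75 FPKM in R3-Cntl SFZ libraries 1 to 3, 1.24, 8.50 and 0.49 in R3-cKO SFZ, 1.12, 3.42 and 1.29 in R3-Cntl DZ and 3.17, 7.56 and 0.62 in R3-cKO DZ. Its log2 fold change in SFZ was -0.97 (SE 0.78, limma adjusted p = 0.9997). By role the median was -0.86 for nucleotide supply, -0.75 for the Mcm2-7 helicase, -0.73 for chromatin copying and -0.71 for G1/S regulators, and -0.48 for clamp and clamp loader.

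The size of the difference in SFZ depended on the libraries. Without R3-cKO SFZ library 2 the median was -1.15 and 46 of 52 members had an unadjusted p under 0.05 and were lower (6.93% of all genes), and without R3-cKO SFZ library 3 it was -0.26 with 0 such members. It was -0.36 without R3-Cntl SFZ library 3. By number as labelled, the members' sum in R3-cKO SFZ was 0.763 times that in R3-Cntl SFZ for number 1. It was 1.35 times for number 2 and 0.247 times for number 3. In the same order 1, 52 and 0 of 53 members were higher in R3-cKO, and the numbers were not taken to pair these libraries. R3-cKO SFZ library 3 had the highest tendon and fibrous tissue sum (11281 FPKM, against 3948 to 8008 FPKM in the other SFZ libraries), and the part of this in the result was not tested.

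In DZ the means lay the other way. Of the members, 51 of 52 tested had a higher mean log2 level in the libraries labelled R3-cKO, with a median log2 fold change of 0.39 beside 0.05 for all genes, and 1 member, Pole2, was below 0 (37.7% of all genes). By limma, 0 members were called and 0 had an unadjusted p under 0.05, against 0% called of 11091 genes, 2.50% with an unadjusted p under 0.05 and higher, and 1.15% lower. In 0 members were the groups separate, against 5.26% of all genes with R3-cKO higher and 2.78% with R3-cKO lower. R3-Cntl DZ likewise enters both this and the zone comparison. The numbers were taken to pair these 6 libraries, from the data and not from the labels, so p-values with the block may be too small. With the number as a block 18 members had an unadjusted p under 0.05 and were higher, against 11.5% of all genes. In that fit 0 passed the adjusted threshold (lowest limma adjusted p 0.155, for E2f1).

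Rrm2 had the largest difference in DZ, 1.07 (SE 0.79, limma adjusted p = 0.999, and with the block SE 0.33, adjusted p = 0.247). Tk1 followed at 0.75 (SE 0.74), Lig1 at 0.60 (SE 0.56) and E2f8 at 0.60 (SE 0.62). Without R3-cKO DZ library 2, Rrm2 gave 0.36, Tk1 0.09, Lig1 0.05 and E2f8 0.14. Without R3-cKO DZ library 3 they gave 1.85, 1.54, 1.16 and 1.15 in the same order. Rrm1, the large subunit of ribonucleotide reductase, came to 15.5, 38.1 and 62.1 FPKM in R3-Cntl SFZ libraries 1 to 3, 12.4, 47.9 and 9.40 in R3-cKO SFZ, 9.36, 23.7 and 9.46 in R3-Cntl DZ and 23.1, 43.2 and 7.65 in R3-cKO DZ. Rrm1 gave 0.59 (SE 0.63, limma adjusted p = 0.999), and its lowest library was R3-cKO DZ 3. Its value was 0.05 without R3-cKO DZ library 2 and 1.23 without R3-cKO DZ library 3. By role the median was 0.59 for nucleotide supply, 0.53 for chromatin copying and 0.24 for clamp and clamp loader.

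Within numbers the sum of the members in R3-cKO DZ was 1.54 times that in R3-Cntl DZ for number 1, 1.59 times for number 2 and 0.960 times for number 3, and 51, 53 and 18 of 53 members were higher. Without R3-cKO DZ library 2 the median was -0.03, and 28 of 50 members were below 0. It was 0.20 without R3-Cntl DZ library 3, 0.71 without R3-Cntl DZ library 2, and 0.84 without R3-cKO DZ library 3, where 18 members had an unadjusted p under 0.05 and were higher (5.44% of all genes). The chondrocyte sum was lowest in DZ in R3-cKO library 2 (17210 FPKM), and its part in the result was not tested.

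**Figure D5:**
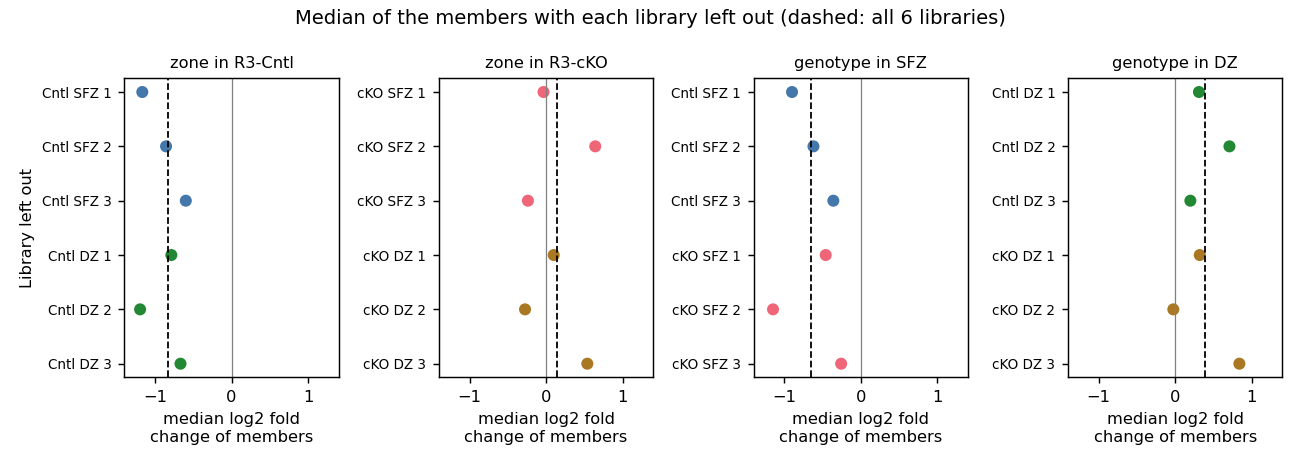
Median log2 fold change of the members with each library of a comparison left out in turn, for the 4 comparisons of 6 libraries. Each point is 1 fit without the library named at its left, and the dashed line is the fit with all 6. The zone difference in R3-Cntl stays between -1.19 and -0.60, and the genotype difference in DZ runs from -0.03 to 0.84.

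The difference of the genotype effect between zones, which is the effect in DZ minus that in SFZ, was above 0 for 53 of 53 members, with a median of 1.05 beside 0.05 for all genes (40.8% of all genes were below 0). The same value is the zone difference in R3-cKO minus that in R3-Cntl. Since the members moved together, their shared sign here is not a set of separate observations. By limma over 12 libraries, 0 members were called, as were 0% of all 11765 genes, and the lowest adjusted p was 0.999. An unadjusted p under 0.05 with a higher value was found in 0 members and in 0.663% of all genes. Rrm2 had the largest difference, 2.06 (SE 1.47), followed by Tk1 at 1.92 (SE 1.33), Uhrf1 at 1.74 (SE 1.21), Mcm5 at 1.66 (SE 1.25) and E2f8 at 1.54 (SE 1.06). The median kept its sign without any 1 library, from 0.63 without R3-cKO DZ library 2 to 1.47 without R3-cKO SFZ library 2, where 34 members had an unadjusted p under 0.05 and were higher (4.83% of all genes). With all 12 libraries and the number as a block, 28 members did (7.03% of all genes), and 0 were called. The numbers were not taken to pair the R3-Cntl or the SFZ libraries.

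The lists outside the set had medians of the same sign. Their mean levels followed that of the members over the same libraries (r = 0.998 and 0.991), so the shared sign is no separate result. Of the 62 further replication genes, 55 were below 0 between zones in R3-Cntl (median -0.43) and 55 between genotypes in SFZ (median -0.34), and in DZ 54 of 61 were above 0 (median 0.14). The 20 mitosis genes had medians of -1.28, -1.14 and 0.50 in these comparisons. By limma 0 genes of either list were called in these 3 comparisons. Between zones in R3-Cntl, 18 of 62 and 8 of 20 had an unadjusted p under 0.05 and were lower (22.4% of all genes). In the other 2 comparisons 0 had an unadjusted p under 0.05 in either direction. With the number as a block in DZ, 8 of 61 further replication genes and 4 of 20 mitosis genes had such a p and were higher. In that fit 11.5% of all genes did, and 0 genes of either list passed the adjusted threshold.

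Some values may include reads of other genes. In the mm9 annotation, exons of 15 members, among them Mcm7, Tk1, Lig1, E2f8, Rfc4 and Chaf1a, overlap exons of a gene on the opposite strand, and 2 pseudogenes carry the name of Pcna. Whether counting used strand is not given in the sources used here, so these levels are less certain.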

How the data were processed

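RNA-seq values for 17536 genes in 12 libraries (SFZ and DZ, R3-Cntl and R3-cKO, 3 each) were used as deposited. The authors' values were taken as FPKM scaled between libraries by TMM, which was inferred and could not be checked. They sum to 392241 to 429213 per library and are neither logarithms nor counts. Median-of-ratios size factors of these values ran from 1.03 to 1.09 in SFZ and from 0.886 to 0.991 in DZ. By that measure the scaling left a difference between zones. The study's methods instead name quantile normalization and log2 values of CPM, so the inferred unit differs from the stated processing. The submitters' processing notes name Bowtie 0.12.2 and mm9, and the counter is not given in the sources used here. No counts were used. Depth and counting error therefore stay unknown, and error is judged only from how far libraries of a group lie apart, which may be partly technical. 0 columns were left unmapped.

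Levels were tested as log2(FPKM + 1), without further scaling, in R 4.3.3 with limma 3.58.1 (mean-variance trend) on genes reaching 1 FPKM in 3 or more libraries of the comparison. p-values were adjusted by Benjamini-Hochberg over all genes tested, and a gene was called at an adjusted p under 0.05. The code was tested on simulated data for the 4 comparisons of 6 libraries, without a block. The simulated noise was independent between genes, so that test does not cover members that move together. Summaries used Python 3.11.15, pandas 2.3.3 and NumPy 2.4.6. Values in every library are given for the member of each role with the highest mean, the 5 members with the largest log2 fold change of each comparison, and called members. The members were fixed by name and not by their values, but the members, lists and tests were chosen with earlier results of these data known.

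Pairing by library number was checked by correlating same-number libraries after removal of group means, over 11359 genes. The correlations were 0.653, 0.781 and 0.687 between genotypes in DZ and 0.418, 0.781 and 0.653 between zones in R3-cKO, so the numbers were taken to pair these libraries, from the data and not from the labels. The check used the same values as the tests, so p-values with the block may be too small. Alternatives were other filters, pseudocounts (0.1 and 5), scalings and models, a replicate block and each library left out in turn.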

Additional observations from a re-analysis of the deposited data

How the results depend on the processing

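No alternative turned the members' median in 4 of the 6 comparisons (zone in R3-Cntl, zone over both genotypes, genotype in SFZ and the difference between zones). It turned with a library left out in the zone comparison of R3-cKO (-0.28 to 0.64) and in the genotype comparison in DZ (-0.03 to 0.84), and the cause was not tested. The other alternatives gave -0.98 to -0.55 for the zone in R3-Cntl, 0.09 to 0.27 for the zone in R3-cKO, -0.40 to -0.16 for both genotypes, -0.75 to -0.41 for genotype in SFZ, 0.27 to 0.45 for genotype in DZ and 0.70 to 1.18 for the difference. The number of members called between zones in R3-Cntl ran from 0 to 2 with a library left out, and was 0 in every other alternative. With a library left out, the log2 fold change between zones in R3-cKO ran from -0.078 to 1.71 for Rrm2 and from -0.085 to 1.29 for Ccne2. It was -0.078 for Rrm2 and -0.051 for Ccne2 without R3-cKO SFZ library 3, and -0.068 and -0.085 without R3-cKO DZ library 2.

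The replicate block gave 1 member called for the zone over both genotypes (Rpa1, -0.57, limma adjusted p = 0.0441), with 33.7% of all genes called in that fit, and changed no other call of a member. In the difference between zones, 28 members had an unadjusted p under 0.05 and were higher with the block (7.03% of all genes). The same-number correlations were 0.575, 0.111 and -0.151 between zones in R3-Cntl and 0.787, -0.0944 and -0.415 between genotypes in SFZ, so these libraries were not taken as paired by number. In both comparisons numbers 2 and 3 had a higher correlation with a library of another number (0.38 and 0.58 between zones, 0.449 and 0.688 between genotypes), which is a hint from the data, and the ratios by number in SFZ rest on the numbers as labelled. The ratio of the highest to the lowest summed level was 4.05 with median-of-ratios size factors and 3.98 without Pcna and Rrm2, both tried after seeing the data. Counts over all genes varied more: 140 were called between zones in R3-Cntl and 0 to 831 under the alternatives, 2 and 0 to 352 in R3-cKO, and 2424 and 1008 to 3965 over both genotypes. The depth is unknown, and its part in the values of low members such as E2f2, Orc1 and Cdc6 was not tested.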
